A study of Gallus gallus with 12 samples.

Results

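The mitochondrial respiratory chain was examined through 63 nuclear genes that encode its subunits, chosen by symbol among the 18332 genes listed for the liver and abdominal fat of chickens. Symbols starting with NDUFA, NDUFB, NDUFC, NDUFS or NDUFV gave 29 genes of complex I, SDHA to SDHC gave 3 genes of complex II, symbols starting with UQCR gave 7 genes of complex III, COX4 to COX8 gave 7 genes of complex IV, and symbols starting with ATP5 gave 17 genes of complex V. CYC1, which the rule also names, matched no row. All 63 genes were at or above 1 FPKM (fragments per transcript length and per library size) in every library, and their lowest value was 3.6 FPKM, so all of them entered every test.

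The birds were purebred female Xinghua chickens, called normal chickens in the study, with an age of 8 weeks in the labels. In the study this was the age at the start of feeding, and tissue was taken after the feeding period. HN birds received a high-fat diet (HFD) and NN birds the normal diet, and the labels name no other agent or allele. RNA was sequenced from 3 livers and 3 abdominal fats per diet, giving 12 libraries in 4 groups of 3. Whether both tissues came from the same birds is not stated. The study set these birds beside sex-linked dwarf chickens, which carry a mutation of the growth hormone receptor, to follow fat deposition under HFD. Libraries of the dwarf birds were not analysed here.

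Electrons from NADH enter the chain at complex I and electrons from succinate at complex II. Both pass them through ubiquinone to complex III, then through cytochrome c to complex IV, which reduces oxygen, and the proton gradient built on the way drives complex V, the ATP synthase. Most subunits are encoded in the nucleus, and a few hydrophobic ones in mitochondrial DNA. None of the symbols listed for the mitochondrially encoded subunits was found, so the nuclear subunits are described alone. Hepatocytes are rich in mitochondria, while white adipocytes hold their cytoplasm in a thin rim around a lipid droplet.

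The tissue labels could be read in the marker genes. Hepatocyte markers summed to 71843 to 94910 FPKM in livers and to 3480 to 10546 FPKM in fats, where nearly all of it was APOA1. Adipocyte markers summed to 14180 to 19421 FPKM in fats and to 252 to 422 FPKM in livers. Total FPKM per library was 571235 to 642102 in liver and 472622 to 504508 in fat, and the 10 most abundant genes took 21.8% to 25.6% of it in liver and 10.1% to 11.8% in fat. Read depth is unknown, since only FPKM was used. The birds carry numbers in the labels. Each test weighs a difference against the spread between the 3 birds per group, moderated by the spread of all genes tested. The main tests treat liver and fat samples as independent.

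The summed FPKM of the 63 genes was higher in liver than in abdominal fat on either diet. It was 10668, 10565 and 10509 FPKM in the NN livers, 11017, 9586 and 13050 in the HN livers, 6605, 5946 and 7226 in the NN fats, and 7739, 6885 and 6289 in the HN fats. No liver overlapped with any fat. The liver mean was 1.61 times the fat mean in NN and 1.61 times in HN, and the 63 genes made up 1.60% to 2.03% of all FPKM in livers and 1.26% to 1.56% in fats. In whole tissue, fewer cells of a type and less RNA per cell cannot be told apart.

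By complex, the ratio of the liver mean to the fat mean in NN was 1.83 for complex III, 1.77 for complex V, 1.55 for complex I, 1.37 for complex IV and 1.32 for complex II. In HN the ratios were 1.73, 1.72, 1.63, 1.33 and 1.45 in the same order of complexes. The highest gene of each complex by its mean over the 12 libraries was ATP5B at 591 FPKM, COX6A1 at 499, NDUFB2 at 294, UQCRH at 282 and SDHB at 100.2 FPKM. The lowest were NDUFV3 at 35.4, SDHA at 44.8, UQCRB at 39.6, COX7A2L at 45.7 and ATP5S at 4.99 FPKM. COX7A2L and ATP5S are counted by symbol and are no structural subunits of the complexes their symbols name. Among the structural subunits of complexes IV and V, the lowest were COX7A2 at 50.5 FPKM and ATP5A1W at 36.0 FPKM. Levels in FPKM are per transcript length, so the span of 118-fold between ATP5B and ATP5S can be read across genes, though not as a span of subunits of the enzyme.

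**Figure D1:**
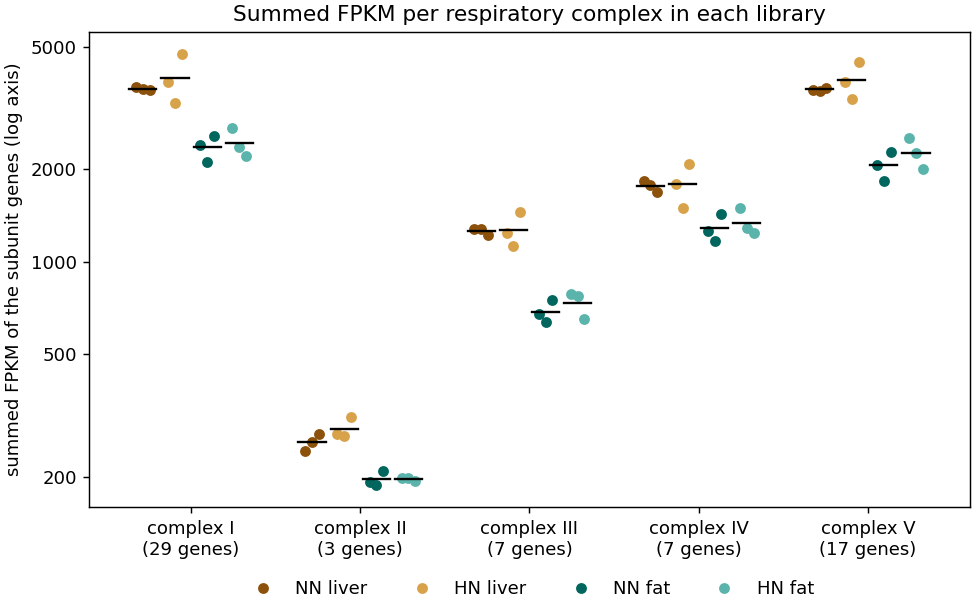
Summed FPKM of the subunit genes of each respiratory complex on a log axis, with 1 point per library, 3 per group, and a line at the group mean. Every liver lies above every fat in complexes I, II, III and V. In complex IV the HN liver of replicate 2, at 1496.6 FPKM, lies level with the HN fat of replicate 1, at 1497 FPKM. Complex II, with 3 genes, has the lowest sum, with a mean of 259 FPKM in NN livers and 196 FPKM in NN fats.

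The comparison of liver with abdominal fat asks how the chain differs between an organ of lipid synthesis and export and the depot that stores the lipid. In NN birds, 47 of the 63 genes were higher in liver at an adjusted p under 0.05 (limma on log2(FPKM + 1)) and 0 were lower, where 16.6% of the 12492 genes tested were higher and 59.4% were lower. Without adjustment, 51 genes were higher and 1, SDHA, was lower at p under 0.05, where 17.2% and 60.5% of all genes were. In HN birds, 40 of 63 were higher and 0 were lower, where 14.8% of the 12511 genes tested were higher and 50.7% were lower. Without adjustment these counts were 41 and 0, where 15.9% and 53.3% of all genes passed. The median difference of the 63 genes was 0.59 (log2) in NN and 0.60 in HN, beside -0.65 and -0.64 for all tested genes. The NN and HN comparisons share no sample, and 39 genes passed in both.

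The sign was the same on both diets for 63 of 63 genes, and no pair of differences was more than 0.34 (log2) apart. Another 8 genes passed in NN alone, and NDUFS4 passed in HN alone. The difference between the diets was not past the threshold for any of these 9 genes in the interaction test given below. The 15 genes that passed on neither diet were NDUFA4, NDUFB1, NDUFS5, NDUFS6, SDHA, UQCRB, COX4I1, COX6C, COX7A2, COX7A2L, ATP5C1, ATP5E, ATP5I, ATP5S and ATP5SL. Leaving out the HN fat of replicate 3 took the HN count from 40 to 26, and the median of the 63 genes from 0.605 to 0.549 (log2). Over all genes, it took those higher from 1853 to 1662 and those lower from 6349 to 5489. The members' sum of this library, 6289 FPKM, was the lowest of the HN fats. The cause of the drop was not tested, and a fit with fewer libraries also has less power.

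How libraries were scaled to each other set the general level of the tissue difference. Of all genes called, 21.9% were higher in liver in NN and 22.6% in HN. After quantile normalization these shares were 45.9% and 46.0%, and after scaling each library to the median ratio over genes they were 51.2% and 52.2%. The median of all genes moved with them, from -0.65 to -0.07 and 0.02 in NN and from -0.64 to -0.06 and 0.03 in HN. Relative to that median, the median of the 63 genes was higher by 1.24 (log2) in NN as deposited, by 0.61 after quantile normalization and by 1.32 after median-ratio scaling. In HN these values were 1.25, 0.51 and 1.34.

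**Figure D2:**
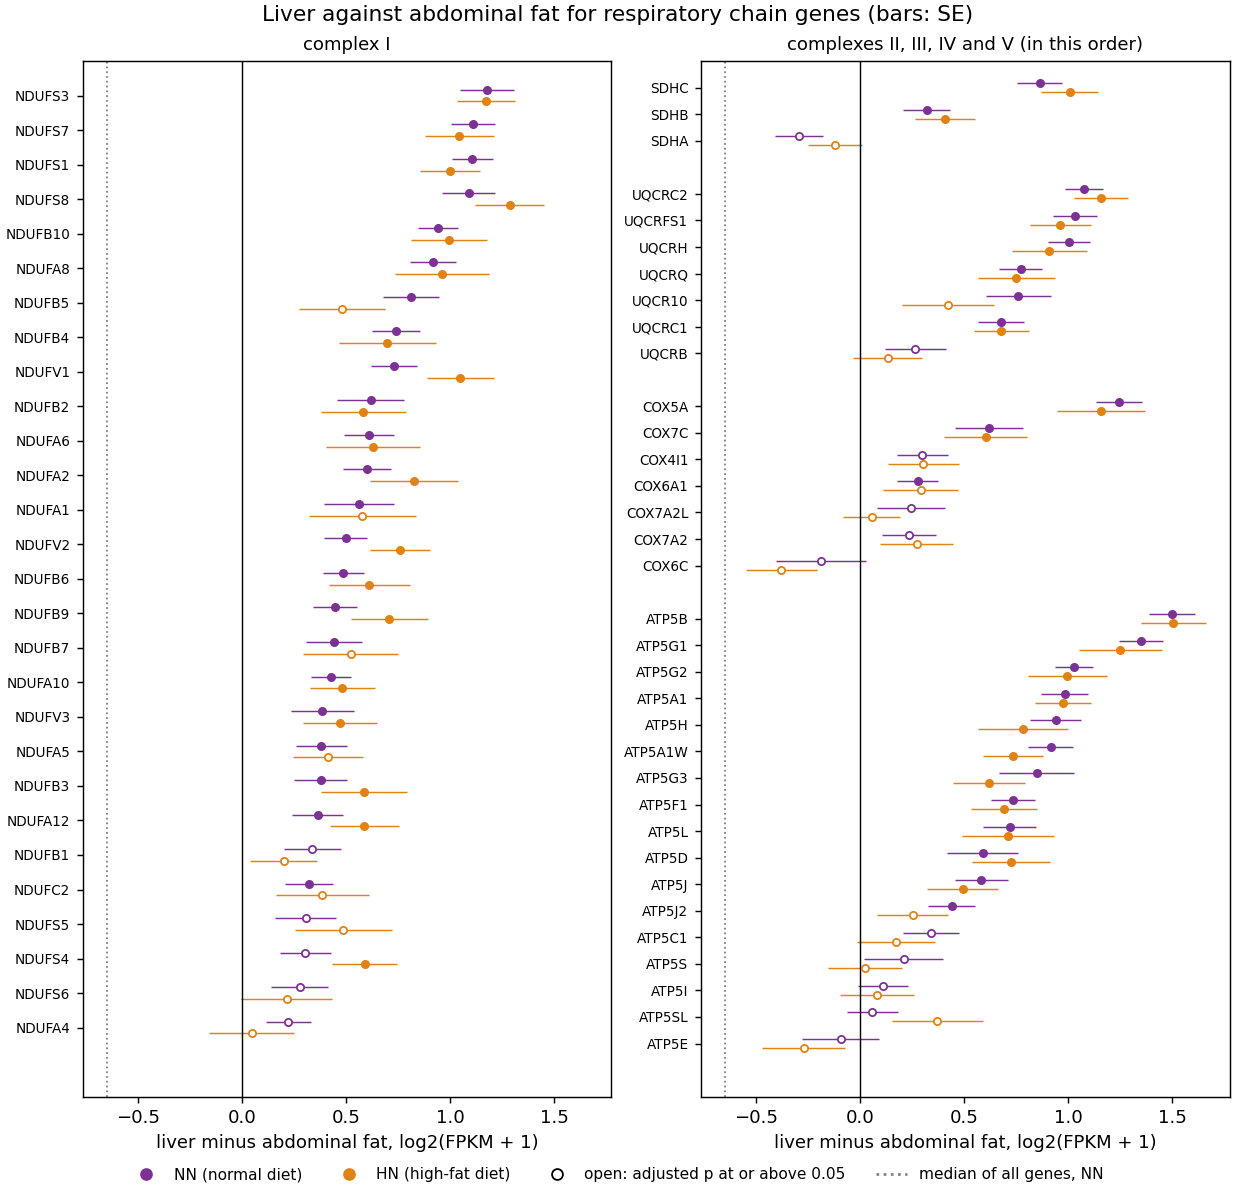
Difference of liver minus abdominal fat on the log2(FPKM + 1) scale for each gene reported, complex I on the left and complexes II to V on the right, in NN and HN birds, with SE bars. Open symbols did not pass an adjusted p of 0.05, and the dotted line marks the median of all genes in NN, -0.65. ATP5B lies farthest right in both, at 1.50 and 1.51, and SDHA, COX6C and ATP5E are the genes left of 0.

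Complex I is built on a core that is shared with bacteria and on accessory subunits that surround it. In the core, 7 subunits are nuclear, among them those that carry the flavin and the iron-sulfur clusters. All 7 core genes were higher in liver on both diets, with a median difference of 1.11 (log2) in NN and 1.05 in HN. Of the 21 accessory genes, 17 were higher in NN and 13 in HN, with medians of 0.44 and 0.58. The share of all genes called higher in liver was 16.6% in NN and 14.8% in HN. NDUFA4, counted here by its symbol and known in mammals as a subunit of complex IV, was not called on either diet.

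NDUFS3 belongs to the arm of complex I that passes electrons to ubiquinone. It was at 107.9, 91.97 and 109.6 FPKM in NN livers, 106, 104 and 118 in HN livers, 42.97, 40.8 and 51.8 in NN fats, and 49.15, 50.1 and 44.6 in HN fats. Every liver was above every fat, with the lowest liver at 91.97 FPKM and the highest fat at 51.8 FPKM. The difference was 1.18 ± 0.13 (log2, SE, adjusted p = 0.00012) in NN and 1.17 ± 0.14 (adjusted p = 0.000292) in HN, limma, 3 against 3 libraries.

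The other core genes described here followed the same order of tissues. NDUFS7 and NDUFS8 carry iron-sulfur clusters in the same arm. NDUFS7 was 2.17 times higher in liver in NN and 2.08 times in HN, and NDUFS8 was 2.15 and 2.45 times higher by the ratio of means. NDUFS1, the largest subunit of the arm that takes up electrons, was 2.199 and 2.04 times higher. NDUFV1, which binds NADH and the flavin, was 1.66 and 2.09 times higher, and NDUFV2, its iron-sulfur partner, was 1.42 and 1.72 times higher.

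Accessory genes stood closer together between the tissues. NDUFB2 of the membrane arm, the most abundant gene of complex I, was at 330.1, 342 and 362 FPKM in NN livers against 228, 179.5 and 274 in NN fats, a difference of 0.62 ± 0.16 (log2, SE, adjusted p = 0.00911). In HN it differed by 0.58 ± 0.20 (limma, adjusted p = 0.0383), a call that was lost in 7 alternative settings of the fit and kept in 5. NDUFV3, the least abundant, differed by 0.39 ± 0.15 in NN (adjusted p = 0.0468) and by 0.47 ± 0.18 in HN (adjusted p = 0.0481). The NN call of NDUFV3 was lost in 7 alternative settings and kept in 5, and its HN call was lost in 6 and kept in 6. With the replicate number as a block, NDUFV3 did not pass in HN (adjusted p = 0.0597). NDUFB10 and NDUFA8, chosen after their values were seen, had the largest differences of the 21 accessory genes in NN, 0.94 and 0.92 (log2), below those of 5 of the 7 core genes.

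The level of the core genes relative to the accessory genes could be read within each library, where a scaling by 1 factor per library leaves it nearly unchanged. The mean log2(FPKM + 1) of the 7 core genes minus that of the 21 accessory genes was 0.04, 0.08 and 0.23 in NN livers, 0.21, 0.36 and 0.07 in HN livers, -0.36, -0.28 and -0.44 in NN fats, and -0.43, -0.24 and -0.28 in HN fats. The core genes thus stood above the accessory genes in 6 of 6 livers and below them in 6 of 6 fats. The HN liver of replicate 3 and the NN liver of replicate 1 lay nearest to the fats, at 0.07 and 0.04. The grouping into core and accessory genes was taken from textbook knowledge after the values were known, and the contrast is given without a test.

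**Figure D3:**
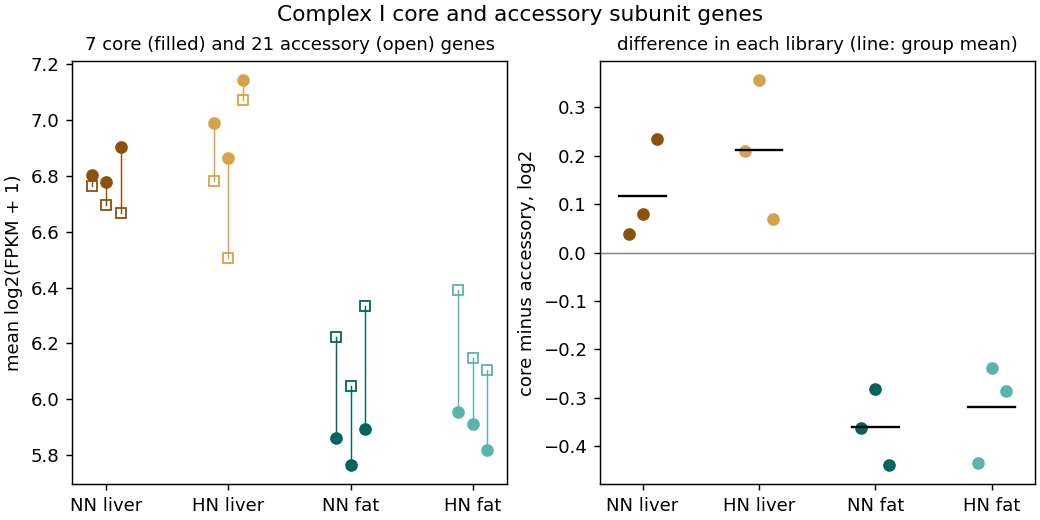
Left, mean log2(FPKM + 1) of the 7 core genes (filled circles) and the 21 accessory genes (open squares) of complex I in each library, joined by a line. Right, the difference of core minus accessory genes in each library with the group mean as a line: all livers lie above 0, from 0.04 to 0.36, and all fats below, from -0.44 to -0.24.

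Complex II oxidizes succinate and is also an enzyme of the citric acid cycle. Its 3 genes did not move together between the tissues. SDHC, the membrane anchor, was higher in liver by 0.86 ± 0.11 (log2, SE, adjusted p = 0.000239) in NN and 1.01 ± 0.14 (adjusted p = 0.000561) in HN. SDHB, the iron-sulfur subunit, was higher by 0.32 ± 0.11 in NN (adjusted p = 0.0358) and 0.41 ± 0.14 in HN (adjusted p = 0.0401, or 0.0725 with the replicate block). Its HN call was lost in 7 alternative settings and kept in 5.

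SDHA (gene ID 395758), the flavoprotein that holds the succinate site, was at 37.7, 45.0 and 36.7 FPKM in NN livers, 46.3, 41.5 and 42.6 in HN livers, 45.7, 50.1 and 50.4 in NN fats, and 46.3, 48.0 and 47.4 in HN fats. NN livers lay below NN fats without overlap, where 60.8% of all genes did so, and the HN groups met at 46.3 FPKM. The difference was -0.29 ± 0.12 (log2, SE, adjusted p = 0.0516) in NN and -0.12 ± 0.13 (adjusted p = 0.452) in HN. Its direction depended on the scaling, and after median-ratio scaling SDHA was higher in liver by 0.46 (adjusted p = 0.00969) in NN and 0.64 (adjusted p = 0.00714) in HN. The ratio of SDHA to SDHB within a library was 0.305 to 0.420 in NN livers and 0.322 to 0.438 in HN livers, and it was 0.534 to 0.606 in NN fats and 0.514 to 0.561 in HN fats. Livers and fats did not overlap in this ratio.

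Complex III passes electrons from ubiquinol to cytochrome c. Of its 7 genes, 6 were higher in liver in NN and 5 in HN, where 16.6% and 14.8% of all genes were. UQCRC2 (gene ID 427009), a core protein related to the mitochondrial processing peptidases, was at 135, 136 and 143 FPKM in NN livers, 151, 153 and 156 in HN livers, 64.2, 63.2 and 68.0 in NN fats, and 67.5, 71.8 and 65.5 in HN fats. The birds of a group lay close to each other beside the distance between the tissues. The difference was 1.08 ± 0.09 (log2, SE, adjusted p = 3.15e-05) in NN and 1.16 ± 0.13 (adjusted p = 0.000227) in HN.

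UQCRFS1, the Rieske iron-sulfur protein, was 2.05 times higher in liver in NN and 1.96 times in HN. UQCRH, the hinge protein and the most abundant gene of the complex, was 2.01 and 1.89 times higher. UQCRB, a small subunit near the ubiquinone sites, had a difference of 0.27 ± 0.15 (log2, SE, adjusted p = 0.136) in NN and 0.13 ± 0.17 (adjusted p = 0.503) in HN. Its 3 NN livers, at 42.6, 48.0 and 41.5 FPKM, overlapped with the NN fat of replicate 3, at 42.5 FPKM.

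Complex IV reduces oxygen to water in subunits encoded in mitochondrial DNA, and its nuclear subunits surround that centre. Fewer of its genes were called than of the other large complexes, 3 of 7 in NN and 2 of 7 in HN, where 16.6% and 14.8% of all genes were higher in liver. Their median differences were 0.28 and 0.29 (log2). These counts depended on the scaling. After median-ratio scaling, COX6C was the only gene of the complex not called (limma, adjusted p = 0.0681 in NN and 0.0622 in HN). That scaling took the number of all genes called higher from 2075 to 4083 in NN and from 1853 to 3756 in HN. The difference between complexes was not tested. COX5A (gene ID 769735) was at 481, 482 and 429 FPKM in NN livers, 439, 357 and 551 in HN livers, 212, 195 and 179 in NN fats, and 234, 191 and 173 in HN fats. Its livers stayed clear of its fats on both diets. The difference was 1.24 ± 0.11 (log2, SE, adjusted p = 3.86e-05) in NN and 1.16 ± 0.21 (adjusted p = 0.00234) in HN. COX7C, named to complete the count of called genes, differed by 0.62 ± 0.16 and 0.61 ± 0.20.

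Subunits of complex IV that exist as tissue isoforms were each listed here in the form that mammals use in liver and most other tissues. COX4I1, which in mammals binds ATP and adjusts the rate of the enzyme, was at 347, 296 and 292 FPKM in NN livers and 245, 233 and 282 in NN fats. Its difference was 0.30 ± 0.12 (log2, SE, adjusted p = 0.0577) in NN and 0.31 ± 0.17 (adjusted p = 0.152) in HN. COX6A1 was at 544, 529.8 and 502 FPKM in NN livers and 429.7, 412 and 458 in NN fats, with adjusted p = 0.0343 in NN, 0.0755 there with the replicate block, and 0.187 in HN. Its NN call was lost in 7 alternative settings and kept in 5. COX7A2 differed by 0.24 ± 0.13 (adjusted p = 0.137) and 0.27 ± 0.18 (adjusted p = 0.206). COX7A2L, known in mammals as a factor that joins complexes III and IV into supercomplexes, differed by 0.25 ± 0.16 (adjusted p = 0.209) and 0.06 ± 0.13 (adjusted p = 0.731). After median-ratio scaling, COX4I1, COX6A1, COX7A2 and COX7A2L were each called higher in liver on both diets, where 4083 of all genes were in NN and 3756 in HN.

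COX6C, singled out after its values were seen, was 1 of the 3 genes with a lower mean in liver on both diets. It was at 145, 159 and 175 FPKM in NN livers, 173, 157.5 and 172 in HN livers, 176, 136 and 249.5 in NN fats, and 262, 183 and 215 in HN fats. The NN groups overlapped. The HN groups did not, where 54.3% of all genes were lower in liver without overlap. The difference was -0.19 ± 0.22 (log2, SE, adjusted p = 0.452) in NN and -0.38 ± 0.17 (adjusted p = 0.0908) in HN. After median-ratio scaling COX6C, SDHA and ATP5E all had positive differences on both diets.

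Complex V makes ATP in its F1 head, which is turned through a central stalk by the ring of c subunits in the membrane, while a peripheral stalk holds the head in place. Of its 17 genes, 12 were higher in liver in NN and 11 in HN, where 16.6% and 14.8% of all genes were. The c ring gave 3 of 3 genes called on both diets and the peripheral stalk 3 of 3, with median differences in NN of 1.03 and 0.74 (log2). With the replicate block, ATP5J of the peripheral stalk did not pass in HN (adjusted p = 0.0614). The head and central stalk gave 4 of 6 genes on both diets, and the small membrane subunits ATP5I, ATP5J2 and ATP5L gave 2 of 3 in NN and 1 of 3 in HN.

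ATP5B (gene ID 426673), the beta subunit that carries the catalytic sites, had the largest difference of the 63 genes on both diets. It was at 748, 812 and 868 FPKM in NN livers, 943, 857 and 1014 in HN livers, 308, 269 and 279.9 in NN fats, and 353, 339 and 297 in HN fats. The lowest liver, at 748 FPKM, stood far above the highest fat, at 353 FPKM. The difference was 1.50 ± 0.11 (log2, SE, adjusted p = 1.4e-05) in NN and 1.51 ± 0.15 (adjusted p = 0.00015) in HN, and the ratios of means were 2.83 and 2.85.

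The other genes of the head and central stalk did not follow ATP5B in proportion. The alpha subunit, which alternates with beta in the head, is encoded in birds on both sex chromosomes, and the symbols ATP5A1 (gene ID 374159) and ATP5A1W (gene ID 431564) matched the Z and W copies in RefSeq. The copies are close in sequence, so the split of reads between them is uncertain. ATP5A1 was 1.99 times higher in liver in NN and 1.97 times in HN, and ATP5A1W was 1.92 and 1.69 times higher. The W copy made up 18.7% to 21.3% of both copies in NN livers, 16.7% to 19.2% in HN livers, 19.9% to 20.4% in NN fats and 20.1% to 20.5% in HN fats. The shares in NN livers overlapped with those in NN fats, and those in HN livers lay below those in HN fats.

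The gamma subunit, ATP5C1, forms the rotating stalk inside the head. It was at 163, 126 and 135 FPKM in NN livers, 146, 105 and 140.4 in HN livers, 115, 98.1 and 120.4 in NN fats, and 133, 109 and 104 in HN fats. Livers and fats overlapped in HN and not in NN, where 17.7% of all genes were higher in liver without overlap. The difference was 0.34 ± 0.14 (log2, SE, adjusted p = 0.0523, or 0.0416 with the replicate block) in NN and 0.17 ± 0.19 (adjusted p = 0.444) in HN. The ratio of ATP5B to ATP5C1 within a library was 4.60 to 6.43 in NN livers and 6.44 to 8.16 in HN livers, against 2.32 to 2.74 in NN fats and 2.66 to 3.12 in HN fats. Of the other stalk genes, ATP5D was higher by 0.59 ± 0.17 and 0.73 ± 0.19, and ATP5E had differences of -0.09 ± 0.18 (adjusted p = 0.665) and -0.27 ± 0.20 (adjusted p = 0.269).

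The c subunit of the ring is encoded by ATP5G1, ATP5G2 and ATP5G3, which in mammals differ in their targeting peptides and give the same mature protein. ATP5G1 (gene ID 419992) was at 391, 401 and 403 FPKM in NN livers, 403, 349.99 and 521 in HN livers, 158, 140.2 and 170.4 in NN fats, and 205, 167 and 158 in HN fats. It differed by 1.35 ± 0.11 (log2, SE, adjusted p = 2.15e-05) in NN and by 1.25 ± 0.20 (adjusted p = 0.00125) in HN. ATP5G2 differed by 1.03 ± 0.09 and 1.00 ± 0.19, and ATP5G3 by 0.85 ± 0.18 and 0.62 ± 0.17. The HN call of ATP5G3 was lost in 3 alternative settings and kept in 9. The share of ATP5G1 in the sum of the 3 genes did not overlap between tissues, while those of ATP5G2 and ATP5G3 did. ATP5G1 gave 50.2% to 51.6% of the sum in NN livers, 48.7% to 51.7% in HN livers, 41.7% to 47.2% in NN fats and 40.9% to 43.7% in HN fats.

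ATP5S and ATP5SL carry ATP synthase symbols and are known in mammals as factors outside the enzyme. They were the least abundant genes of the set, ATP5S at 3.60 to 6.68 FPKM and ATP5SL at 11.4 to 22.8 FPKM over the 12 libraries. Neither was called between the tissues, and with NDUFA4 and COX7A2L they were the 4 members that are no structural subunit of the complex their symbol names. None of the 4 was called on either diet, so the structural subunits alone gave 47 and 40 calls of 59.

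A further 10 subunit genes that the files list under clone or locus names were matched by gene ID to RefSeq: NDUFA9, NDUFA11, NDUFA13, NDUFB8, SDHD, UQCR11, COX7B, COX8A, ATP5O and C14orf2. They are no members by the rule and serve as a view of the chain that the choice of symbols did not touch. Of these, 8 were higher in liver in NN and 3 in HN, and 0 were lower. Among all genes tested, 16.6% were higher and 59.4% lower in NN, and 14.8% and 50.7% in HN. The median differences of the 10 genes were 0.48 and 0.40 (log2). NDUFA13 was at 233, 229 and 278 FPKM in NN livers and 99.5, 93.9 and 119 in NN fats. SDHD, the other membrane anchor of complex II, had differences of 0.06 (adjusted p = 0.71) and 0.10 (adjusted p = 0.57).

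Among genes that build or serve the chain, calls went in both directions. Of all genes tested in NN, 16.6% were higher in liver and 59.4% lower. In NN, 4 of 12 assembly factors of complex I were higher in liver and 3 lower, and 2 of 24 assembly factors of the other complexes were higher and 5 lower. Of 12 genes of ubiquinone synthesis and transport, 4 were higher and 4 lower, and of 70 mitochondrial ribosomal protein genes, 25 were higher and 9 lower. In HN these counts were 4 and 2, 5 and 3, 2 and 1, and 23 and 6 of 69, where 14.8% and 50.7% of all genes passed. The list medians in NN were -0.147, -0.068, -0.071 and 0.135 (log2), above the -0.647 of all genes. In HN they were 0.045, 0.006, -0.15 and 0.328, above -0.642. Genes of the outer membrane, import and quality control had medians of 0.197 in NN and 0.502 in HN. A position above the median of all genes was thus not particular to the subunits. FOXRED1, an assembly factor of complex I chosen here after its value was seen, was higher by 2.26 (log2, adjusted p = 6.7e-06) in NN and by 2.63 (adjusted p = 7.4e-05) in HN. COX17, which brings copper to complex IV, was lower by 0.76 (adjusted p = 0.00047) and 0.59 (adjusted p = 0.01), near the median of all genes.

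Of the cytosolic ribosomal protein genes, which are also short and abundant, 1 of 74 was higher and 66 were lower in liver in NN. In HN 1 was higher and 42 were lower. Their medians were -0.73 (log2) in NN and -0.50 in HN. Of all genes, 16.6% were higher and 59.4% lower in NN, and 14.8% and 50.7% in HN, with medians of -0.65 and -0.64. Muscle markers were listed because muscle is rich in respiratory chain transcripts. They summed to 13.4 to 39.1 FPKM in fats and to 0.55 to 2.10 FPKM in livers. Most of the sum in fats was ACTA1, at 8.93 to 34.6 FPKM. ACTC1 and MB were at 0 in every liver. In fats ACTC1 was at 0.04 to 0.52 FPKM, and MB was at 0.07 to 0.22 FPKM in NN and at 0 in every HN fat. Endothelial markers summed to 391 to 697 FPKM in fats and 21.9 to 53.8 FPKM in livers. Markers of fibroblasts and mesothelium summed to 1805 to 5346 FPKM in fats and 83.6 to 122 FPKM in livers. That sum came from collagen and other fibroblast genes. The mesothelial marker MSLN went the other way, at 0.1 to 0.92 FPKM in fats and 1.28 to 5.85 FPKM in livers. The part of these cell types in the tissue difference was not tested.

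In all groups but the NN livers, most of the 63 genes shared the same highest and lowest bird. In HN livers, replicate 3 was the highest bird for 52 of 63 genes and replicate 2 the lowest for 57. In NN fats, replicate 3 was highest for 51 and replicate 2 lowest for 49, and in HN fats replicate 1 was highest for 46 and replicate 3 lowest for 47. The NN livers showed no such order, with 23, 16 and 24 genes highest in replicates 1, 2 and 3. How often each bird was highest or lowest over all genes was not counted. The factors of the median-ratio scaling over genes were 0.953, 0.908 and 1.04 in HN livers, in the order of the respiratory chain sum. They were 1.004, 1.075 and 1.005 in NN fats and 0.997, 0.922 and 1.02 in HN fats, not in that order. The median coefficient of variation over the genes was 6.52% in NN livers, 16.0% in HN livers, 10.1% in NN fats and 11.7% in HN fats. It reached 31.1% for NDUFB4 in HN livers and 30.9% for COX6C in NN fats, genes named for these extremes.

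The sums of other gene groups followed the order of the respiratory chain sum in some groups of birds and not in others. Cytosolic ribosomal protein genes summed to 38291, 33872 and 43582 FPKM in the HN livers and mitochondrial ones to 2603, 2537 and 3401 FPKM, both in that order. In NN fats the cytosolic sums were 60620, 57749 and 64328 FPKM and the mitochondrial ones 2147, 2015 and 2234 FPKM, again in that order. In HN fats the cytosolic sums were 58676, 51352 and 53158 FPKM, lowest in replicate 2, where the respiratory chain sum was lowest in replicate 3. The mitochondrial sums there, 2219, 1996 and 1973 FPKM, followed the order of the respiratory chain sum. They did not in the NN livers, at 2662, 2665 and 2621 FPKM. Globin and other red cell markers summed to 1832, 313 and 484 FPKM in the HN fats and 934, 170 and 622 in the HN livers, and macrophage markers to 39.8, 509 and 485 FPKM in the HN livers, none of them in the order of the respiratory chain sum. Their part in the spread between birds was not tested.

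**Figure D4:**
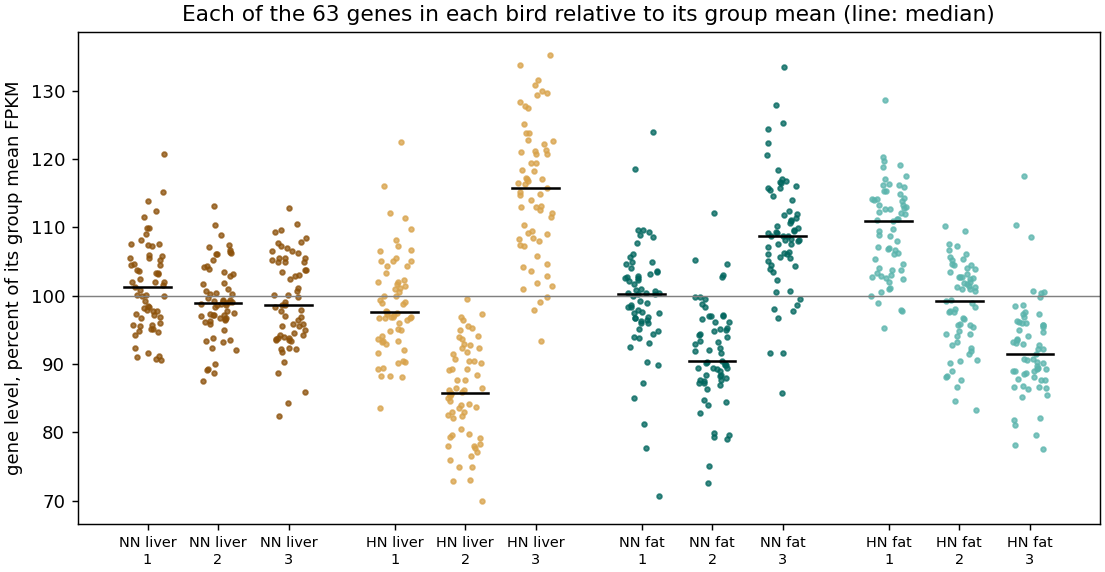
Level of each of the 63 genes in each bird as a percent of the mean FPKM of its group, with the median over genes as a line. Most genes of HN liver 3 lie above the group mean and those of HN liver 2 below it, while the NN livers stay close to it, as in the median coefficients of variation of 16.0% and 6.52%.

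The comparison of HN with NN asks whether HFD changed the chain within a tissue. In liver, 0 of the 63 genes were called, where 0% of the 11278 genes tested passed an adjusted p of 0.05 (limma) and 1349 genes passed p under 0.05 without adjustment. Among the members, 0 were higher and 1, ATP5S, was lower at p under 0.05 without adjustment, where 3.42% of all genes were higher and 8.54% lower. The median difference of the 63 genes was 0.08 (log2), beside -0.06 for all genes, and 46 of 63 had a positive sign where 42.2% of all genes had one.

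That tilt depended on single libraries and on the scaling. Without the HN liver of replicate 3 the median of the 63 genes was -0.04 and 25 had a positive sign, and without the HN liver of replicate 2 the values were 0.15 and 54. After quantile normalization the median was -0.05 with 19 positive, and after median-ratio scaling it was 0.18 with 55 positive. The 95% confidence intervals of all 63 differences lay within 1 log2 unit of 0 in either direction, and 30 of them lay within 0.5.

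The 3 HN livers did not overlap with the 3 NN livers for 5 genes with higher values and 1 with lower values, where 6.12% and 15% of all genes did not overlap in these directions. An exact permutation test of 3 against 3 birds cannot go below a two-sided p of 0.1. Of the higher genes, NDUFS8 and NDUFV1 are core genes of complex I. NDUFS8 (gene ID 769492) was at 122, 128 and 151 FPKM in NN livers and 165, 157 and 190.5 in HN livers, a difference of 0.35 (log2, 95% CI -0.01 to 0.72, adjusted p = 0.422).

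NDUFV1 was at 219.8, 221 and 238 FPKM in NN livers against 265, 253 and 331 in HN livers, a difference of 0.31 (95% CI -0.06 to 0.68, adjusted p = 0.449). The gap between the highest NN bird and the lowest HN bird was small beside the spread of the HN birds. ATP5A1 differed by 0.19 (95% CI -0.13 to 0.51) and UQCRC2 by 0.15 (95% CI -0.14 to 0.44). After median-ratio scaling, 24 genes did not overlap upward and 1 downward, where 11.5% and 9.75% of all genes did so, 9 members were higher at p under 0.05 without adjustment where 7.12% of all genes were, and 0 passed after adjustment.

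ATP5S (gene ID 423574), the gene with lower values, was at 6.68, 6.53 and 5.16 FPKM in NN livers and 4.52, 3.75 and 4.73 in HN livers. The difference was -0.42 (log2, 95% CI -0.79 to -0.05, adjusted p = 0.401). The catalytic beta subunit ATP5B, with 748, 812 and 868 FPKM in NN and 943, 857 and 1014 in HN livers, had a difference of 0.21 (95% CI -0.13 to 0.55, adjusted p = 0.563), and NN and HN livers overlapped.

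In abdominal fat, 0 of the 63 genes were called, where 0.00807% of the 12394 genes tested passed, which is 1 gene. Without adjustment 0 members had p under 0.05, where 580 genes or 4.68% did. The median difference was 0.07 (log2), beside -0.07 for all genes, and 48 of 63 were positive where 37.3% of all genes were. The median was 0.04 after quantile normalization and 0.14 after median-ratio scaling, and it fell to 0.02 without the NN fat of replicate 2 or without the HN fat of replicate 1. All 63 confidence intervals lay within 1 log2 unit of 0, and 45 lay within 0.5.

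NDUFS4 was the 1 gene whose fats did not overlap between the diets, lower in HN, where 6.81% of all genes did not overlap in this direction and 3.49% in the other. It is an accessory subunit that stabilizes the electron input arm of complex I in mammals. It was at 34.1, 36.6 and 39.2 FPKM in NN fats and 32.5, 27.4 and 33.95 in HN fats, so that the nearest birds of the groups were almost equal. The difference was -0.23 (log2, 95% CI -0.53 to 0.08, adjusted p = 0.799).

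**Figure D5:**
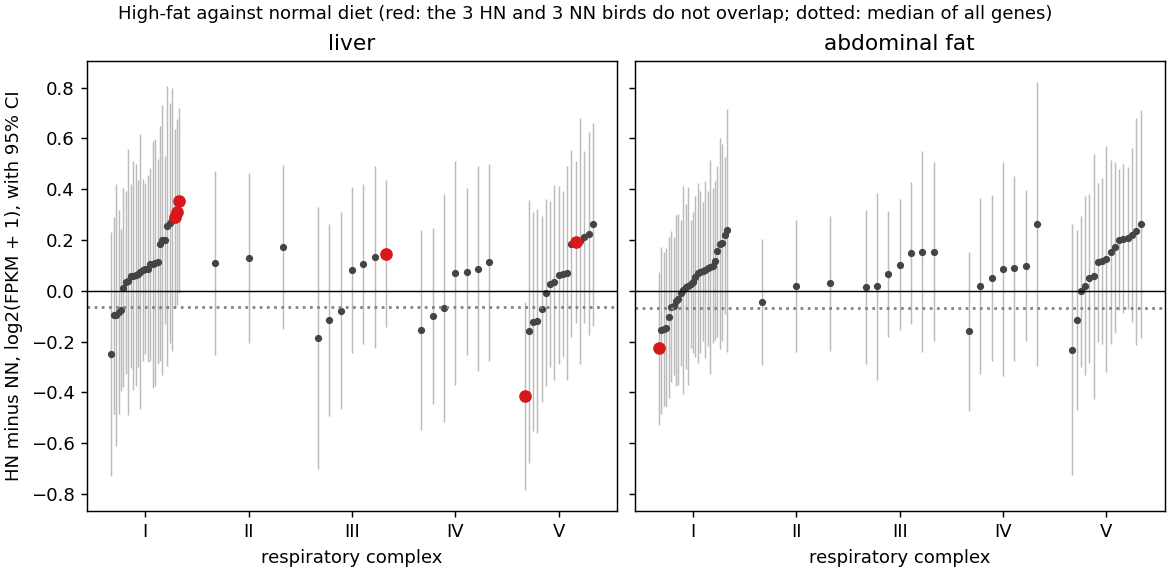
Difference of HN minus NN on the log2(FPKM + 1) scale for each of the 63 genes by complex, in liver and in abdominal fat, with 95% confidence intervals. Red points are the genes whose 3 HN and 3 NN birds do not overlap, 6 in liver and 1 in fat, and the dotted lines are the medians of all genes, -0.06 and -0.07.

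Whether the diet difference itself differed between the tissues was tested as an interaction over the 12 libraries. Of the 63 genes, 0 passed an adjusted p of 0.05 and 0 had p under 0.05 without adjustment, where 0% and 4.54% of the 12544 genes tested did. With the replicate number as a block, 4 of all genes passed and none of them was a member. The median over the members was -0.003 (log2). The values reached from -0.34 for UQCR10 to 0.32 for NDUFV1. The value of NDUFV1 was 0.32 (95% CI -0.08 to 0.72, adjusted p = 0.998), with a diet difference of 0.31 in liver and -0.01 in fat. The 63 intervals reached from -0.96 to 0.87, and 19 of them lay within 0.5 log2 units of 0.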

How the data were processed

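RNA of liver and abdominal fat was extracted with Trizol and sequenced on the BGISEQ-500 platform, with 1 library per bird and tissue. The authors deposited FPKM per gene for each library, with gene ID, symbol and RefSeq transcripts. The submitters' processing notes name HISAT2 2.0.4, Bowtie2 2.2.5 and RSEM 1.2.12, with no role stated. The genome build is not given in the sources used here. FPKM is relative to library size, so a few abundant genes lower all others, and depth is unknown. Groups came from the sample labels.

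The 63 genes were taken by symbol, and 62 matched a RefSeq entry by gene ID (assembly GRCg7b, names only). Differences were tested with limma 3.58.1 in R 4.3.3 (lmFit, eBayes with trend, two-sided) on log2(FPKM + 1), leaving out genes whose mean was under 1 FPKM in the libraries fitted, with Benjamini-Hochberg adjustment over all tested genes. Each comparison was fitted on its own 6 libraries and the interaction on all 12. Confidence intervals cover 95%. The study's own comparisons used counts pooled per group. Values and figures used Python 3.11.15 with pandas 2.3.3, numpy 2.4.6 and matplotlib 3.10.9. The fit was tested on simulated data.

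For the replicate block, liver and fat samples of the same number were treated as pairs, and their deviations from the group means were compared. The correlations of these over genes were 0.295, 0.274 and 0.234 in NN and 0.227, 0.398 and 0.121 in HN. Samples of unlike number had -0.176 to -0.086 in NN and -0.372 to 0.192 in HN. The HN liver of replicate 3 correlated more with the HN fat of replicate 1 (0.192) than with that of replicate 3, so the pairing in HN is uncertain. No label states that the paired samples come from the same bird. Samples of the same number on different diets, which are different birds, reached 0.399 in liver and 0.229 in fat. These correlations therefore cannot identify a bird. Values with this block are given where a call changed.

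Alternatives were another pseudocount (0.1 FPKM), no filter, quantile normalization, median-ratio scaling, the replicate block, all 12 libraries in 1 fit, the structural subunits alone and leaving out each library. Genes named were the highest and lowest of each complex, isoform and copy sets, catalytic or redox subunits and, per comparison, the 5 largest called or non-overlapping differences each way. Others were named after their values were seen. The members and lists were chosen with earlier results of these data known. Members that are not reported here by name are still part of the counts and medians.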

Additional observations from a re-analysis of the deposited data

How the results depend on the processing

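The counts of members called kept within 1.5 times of those reported under the other pseudocount, no filter, the replicate block and the structural subunits alone, except that SDHA added 1 gene lower in liver in NN with no filter (-0.29, adjusted p = 0.0467) and with all 12 libraries in 1 fit (adjusted p = 0.0327). Quantile normalization added 2 genes lower in liver in HN, ATP5E at -0.59 (adjusted p = 0.0186) and COX6C at -0.72 (adjusted p = 0.0113). Median-ratio scaling gave 62 members higher in liver in HN and 62 in NN, and turned SDHA to 0.456 in NN and 0.641 in HN. It also raised the number of all genes called higher, from 1853 to 3756 in HN and from 2075 to 4083 in NN. Over all genes, the fit of all 12 libraries called 28 genes in the liver diet comparison and 0 in that of fat, where the separate fits called 0 and 1. Leaving out single libraries gave 26 to 44 members higher and 0 lower in liver in HN, where 1652 to 1887 of all genes were higher. In NN it gave 39 to 51 members higher and 0 to 1 lower (1 without the NN liver of replicate 2). Of all genes, 1923 to 1989 were then higher in NN. In the interaction 0 to 4 genes of all passed (4 without the HN liver of replicate 3, 2 without the HN liver of replicate 1 or the HN fat of replicate 3). The causes were not tested.

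The replicate block left 47 members called in NN, where COX6A1 was lost (adjusted p = 0.0755) and ATP5C1 gained (0.0416), and 35 in HN, where NDUFA6 (adjusted p = 0.058), NDUFB6 (0.0509), NDUFV3, SDHB and ATP5J were lost, and raised the interaction from 0 to 4 genes. It changed no other tissue call of a member. In the diet comparisons, samples of the same number come from different birds. Their correlations were 0.399, 0.092 and -0.04 in liver and 0.219, 0.041 and 0.229 in fat, in part as large as those between the tissues. The block gave 0 members called between the diets in either tissue. With 3 birds per group, FPKM without read counts and a median coefficient of variation of 16.0% in HN livers, small diet differences could not be resolved.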

Other observations

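The enzymes of the citric acid cycle, which feed electrons to complexes I and II, had calls in both directions between the tissues. Of 13 genes, 6 were higher and 4 lower in liver in NN, where 16.6% and 59.4% of all genes were. In HN the counts were 6 and 3, where 14.8% and 50.7% of all genes were. The medians of the 13 genes, -0.074 (log2) in NN and 0.125 in HN, lay above the -0.647 and -0.642 of all genes. Succinyl-CoA synthetase pairs a shared alpha subunit, SUCLG1, with a beta subunit that makes either ATP (SUCLA2) or GTP (SUCLG2). SUCLA2 was at 3.99, 2.45 and 1.21 FPKM in NN livers and 19.04, 22.6 and 26.5 in NN fats, a difference of -2.81 (log2, limma adjusted p = 8.16e-05), while SUCLG2 was at 34.6, 30.9 and 28.9 FPKM in NN livers and 10.3, 12.8 and 12.5 in NN fats. In HN, SUCLA2 was at 1.67, 1.37 and 3.95 FPKM in liver and 23.5, 18.6 and 23.9 in fat, and SUCLG2 at 27.5, 25.3 and 24.6 in liver and 9.59, 7.5 and 10.7 in fat. SUCLG1 did not separate the tissues to this degree, with 20.6 to 23.7 FPKM in NN livers and 24.6 to 28.6 in NN fats.

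Citrate synthase (CS), which opens the cycle, was lower in liver, at 33.8, 30.9 and 32.7 FPKM in NN livers against 78.5, 75.2 and 70.6 in NN fats (-1.18, adjusted p = 2.65e-05). It was at 63.04, 45.7 and 51.1 FPKM in HN livers, so that the livers of the diets did not overlap, with a difference of 0.69 ± 0.16 (log2, SE) whose adjusted p was 0.392. PPARGC1A, a coactivator of mitochondrial biogenesis, was at 9.25, 5.50 and 4.67 FPKM in NN livers and 0.48, 0.43 and 0.31 in NN fats, while GABPA, a transcription factor known to bind promoters of respiratory chain genes in mammals, was lower in liver at 12.6 to 13.2 FPKM against 23.8 to 26.7 in NN. VDAC3, a channel of the outer membrane, was at 9.63 to 13.5 FPKM in NN livers and 35.1 to 42.3 in NN fats, and VDAC2 at 212 to 238 and 192 to 226. These genes were picked from the fixed lists after their values were seen.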
